A study of Mus musculus with 8 samples.

Results

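The S100 genes encode small calcium-binding proteins that work as dimers. The 10 described here (S100a1, S100a4, S100a6, S100a8, S100a9, S100a10, S100a11, S100a13, S100a14 and S100a16) were taken by their symbols from a table of 24537 genes. The table lists 7 other S100 genes, which are given more briefly below. RNA was sequenced from cells labelled as EpCAM+ and sorted out of pancreatic tumours, with 1 library for each of 8 mice. All mice were FVB/NJ and of 1 genotype, which includes Rosa26LSL-Luc and Pdx1-Cre. In these animals Cre is driven by the Pdx1 promoter, which is active in the pancreatic lineage. It switches on a luciferase reporter.

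Every mouse received gemcitabine, a nucleoside analogue used against pancreatic cancer, at 50 mg/kg on days 1 and 4. The IgG arm (4 mice) also received control IgG, and the anti-LIF arm (4 mice) an antibody against the cytokine leukaemia inhibitory factor. Both antibodies were given at 25 mg/kg on days 1, 3 and 5. Treatment began at 42 to 43 days of age, and whole tumours were taken on day 6, at about 48 days. No group without gemcitabine was analysed here, so each difference is one between antibodies in gemcitabine-treated mice. Libraries carry the names of their labels, which hold the mouse number. In all lists of values below, the IgG libraries come first as KPCL-PCC_203_G, then KPCL-PCC_343_G, then KPCL-PCC_345_G, then KPCL-PCC_393_G. The anti-LIF libraries follow as KPCL-PCC_227_GA, then KPCL-PCC_310_GA, then KPCL-PCC_354_GA, then KPCL-PCC_391_GA.

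When calcium binds, an S100 dimer exposes a hydrophobic face and grips target proteins, such as annexins at the membrane and myosin in the cytoskeleton. Some S100 proteins also leave the cell and act as alarm signals on receptors such as RAGE (gene Ager) and TLR4. In pancreatic cancer several members are known from malignant duct cells, whereas S100A8 and S100A9 are best known as the calprotectin pair of neutrophils and monocytes.

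The libraries held 15135457 to 18972281 reads in genes. Reads carry no molecular identifiers. By their markers the sorted cells were not epithelial alone, which goes against the label, so every level below is one in a mixture. The summed level of 24 epithelial markers was 7084 to 8276 CPM (counts scaled by library total and by the trimmed mean of M values, TMM) with IgG and 2900 to 4707 with anti-LIF, and 21 of the 24 fell. Among them was the sort marker Epcam (575 ± 76.8 and 305 ± 74.8 CPM). The sum of 15 macrophage markers exceeded the epithelial sum in every library, at 11624 to 15508 CPM with IgG and 24714 to 50408 with anti-LIF, and 11 of 15 rose. Of 11 acinar markers 9 rose, with sums of 301 to 1646 and 2510 to 13592 CPM. The sums of 8 monocyte markers (3 rose, 1 fell) were 3810 to 10511 and 2041 to 3105 CPM. Chil3, named after its values were seen, set that direction (6398 and 678 CPM on average), and without it the sums were 537 to 1166 and 1575 to 2696 CPM. Those of 11 fibroblast markers (1 rose) were 248 to 883 and 300 to 996 CPM. The 7 endothelial markers (6 tested, 0 changed) summed to 28.1 to 37.3 and 15.6 to 38.2 CPM. The 9 lymphoid markers (7 tested, 3 rose) summed to 7.58 to 27.6 and 39.5 to 63.2 CPM. In such mixed RNA, fewer cells of a type and less RNA per cell cannot be told apart, and the part of these markers in the results below was not tested.

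Library KPCL-PCC_227_GA of the anti-LIF arm stood apart. It had the highest macrophage sum (50408 CPM) and the lowest epithelial sum (2900 CPM) of the 8, and a TMM factor of 0.844 against 0.978 to 1.08 elsewhere. It was the lowest anti-LIF library for 7 of the 10 members. In the IgG arm, library KPCL-PCC_393_G was highest for 6 of the 10 and lay above its arm's mean, on the log2 CPM scale, for all 10. Results are given without both where that matters.

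All 10 members passed the filter on low counts. In edgeR's quasi-likelihood test, 3 were lower with anti-LIF (S100a6, S100a11 and S100a16) and 1 was higher (S100a13) at an adjusted p under 0.05. Of all 14711 tested genes, 16.5% were lower and 15.7% higher at that threshold. With so few members, those counts are no result about the family, and what follows concerns single genes. The median log2 fold change (anti-LIF minus IgG) of the 10 members was −0.45, against −0.01 over all tested genes. The arms did not overlap for the same 4 members, beside 17.6% of all tested genes that lay higher without overlap and 18.2% that lay lower. Without libraries KPCL-PCC_227_GA and KPCL-PCC_393_G, there were again 3 lower and 1 higher.

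**Figure D1:**
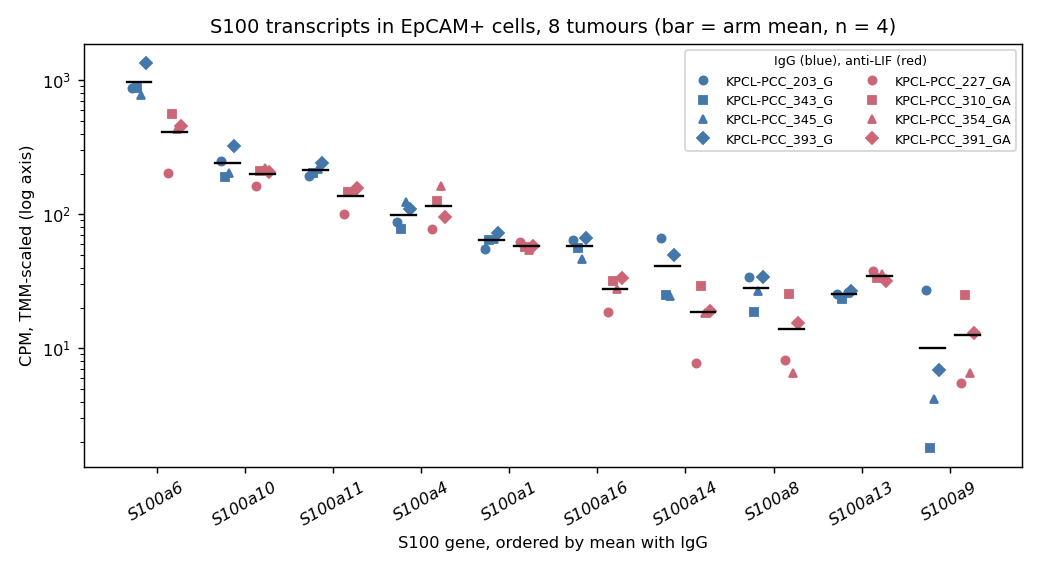
TMM-scaled CPM (log axis) of the 10 S100 genes in each of the 8 libraries, with IgG in blue and anti-LIF in red, a marker shape for each library and a bar for each arm's mean (n = 4). The arms are apart for S100a6, S100a11, S100a16 and S100a13, and S100a9 has the widest spread within an arm.

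The largest S100 transcript pool was that of S100a6 (chromosome 3, 90612894 to 90614414, + strand), and it fell with anti-LIF. S100a6 encodes calcyclin, which binds annexins and the ubiquitin-ligase adaptor CacyBP, and is known from duct-derived tumour cells. Its levels were 881, 872, 783 and 1343 CPM in the IgG libraries and 202.6, 561, 436 and 457 CPM in the anti-LIF libraries. Every anti-LIF library lay below every IgG library, with library KPCL-PCC_393_G well above the rest of its arm and library KPCL-PCC_227_GA well below the rest of the other. The means were 970 ± 253 and 414 ± 151 CPM (SD, n = 4), a 2.34-fold lower level with anti-LIF (log2 fold change −1.23 ± 0.30 SE, adjusted p = 0.0167). Without libraries KPCL-PCC_227_GA and KPCL-PCC_393_G the log2 fold change was −0.80 (adjusted p = 0.0106). S100a6 alone made up 51.5% to 59.0% of the members' counts with IgG and 29.6% to 45.0% with anti-LIF. With reads scaled by transcript length (FPKM), its share was 45.9% to 54.4% with IgG and 25.6% to 39.8% with anti-LIF. All 10 members together took 0.185% ± 0.0383 of the counts in genes with IgG and 0.0993% ± 0.0285 with anti-LIF.

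S100a16 (chromosome 3, 90541223 to 90543151, + strand), a widely expressed member of the family, fell by a similar factor. It stood at 64.3, 55.9, 46.7 and 66.5 CPM with IgG and at 18.6, 31.9, 27.6 and 33.3 CPM with anti-LIF. The arms were apart, and library KPCL-PCC_227_GA was again the lowest. The level went from 58.4 ± 9.01 to 27.9 ± 6.64 CPM, 2.10-fold lower (−1.07 ± 0.19, adjusted p = 0.00572), the lowest adjusted p of the 10 members. Without libraries KPCL-PCC_227_GA and KPCL-PCC_393_G it was −0.84 (adjusted p = 0.0116).

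S100a11 (chromosome 3, 93520496 to 93526288, + strand), whose protein binds annexin A1 and takes part in membrane repair, fell by a smaller factor. Its levels were 193, 205, 220 and 243 CPM with IgG and 99.8, 146, 149 and 157 CPM with anti-LIF. Apart from library KPCL-PCC_227_GA, the anti-LIF libraries lay close together and below all IgG libraries. The means were 215 ± 21.8 and 138 ± 25.8 CPM, 1.56-fold lower (−0.64 ± 0.15, adjusted p = 0.0129). Without libraries KPCL-PCC_227_GA and KPCL-PCC_393_G the log2 fold change was −0.446 (adjusted p = 0.0161).

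S100a14 (chromosome 3, 90526849 to 90528835, + strand), found mainly in epithelia, showed a difference nearly as large as that of S100a6 but with overlapping arms. It stood at 66.6, 24.8, 24.7 and 49.6 CPM with IgG and at 7.79, 29.1, 18.4 and 19.1 CPM with anti-LIF. Libraries KPCL-PCC_343_G and KPCL-PCC_345_G of the IgG arm lay below library KPCL-PCC_310_GA of the anti-LIF arm. The log2 fold change was −1.15 ± 0.44 and missed the threshold (adjusted p = 0.0709). It passed in 2 of 19 alternatives, with DESeq2 (adjusted p = 0.0252) and without library KPCL-PCC_310_GA (−1.45, adjusted p = 0.046). Over all 19 the adjusted p ran from 0.0252 to 0.568, and without libraries KPCL-PCC_227_GA and KPCL-PCC_393_G the log2 fold change was −0.80 (adjusted p = 0.195).

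S100a10 (chromosome 3, 93555117 to 93564645, + strand) is the partner of annexin A2 in a tetramer that holds plasminogen at the cell surface, and it keeps its active shape without calcium. Its levels were 250.04, 189, 202 and 325 CPM with IgG and 163, 212, 223 and 207 CPM with anti-LIF. The arms overlapped, and the test did not pass (242 ± 61.2 and 201 ± 26.2 CPM, −0.26 ± 0.18, adjusted p = 0.286). Without libraries KPCL-PCC_227_GA and KPCL-PCC_393_G the log2 fold change was 0.005 (adjusted p = 0.982).

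Relative to the epithelial markers the picture differed. With the libraries scaled to the summed epithelial list, the median of all tested genes moved to 1.01, and the falls of S100a6 (−0.29 ± 0.26, adjusted p = 0.323) and S100a16 (−0.10 ± 0.17, adjusted p = 0.603) no longer passed. The values for S100a8 (−0.11) and S100a14 (−0.21) were also near 0 on that scale. S100a11 had the opposite sign (0.33 ± 0.19, adjusted p = 0.134), and so did S100a10 (0.73, adjusted p = 0.0089) and S100a1 (0.87, adjusted p = 0.00261). Measured against epithelial markers, S100a6, S100a8, S100a9 (1.275, adjusted p = 0.072), S100a11, S100a14 and S100a16 did not pass the test. Of these, S100a8, S100a9 and S100a14 had not passed with TMM scaling either. S100a4 (1.20, adjusted p = 0.00115) and S100a13 (1.49) were higher on the epithelial scale. Apart from S100a4, S100a9 and S100a13, the members stayed below that scale's median over all genes.

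**Figure D2:**
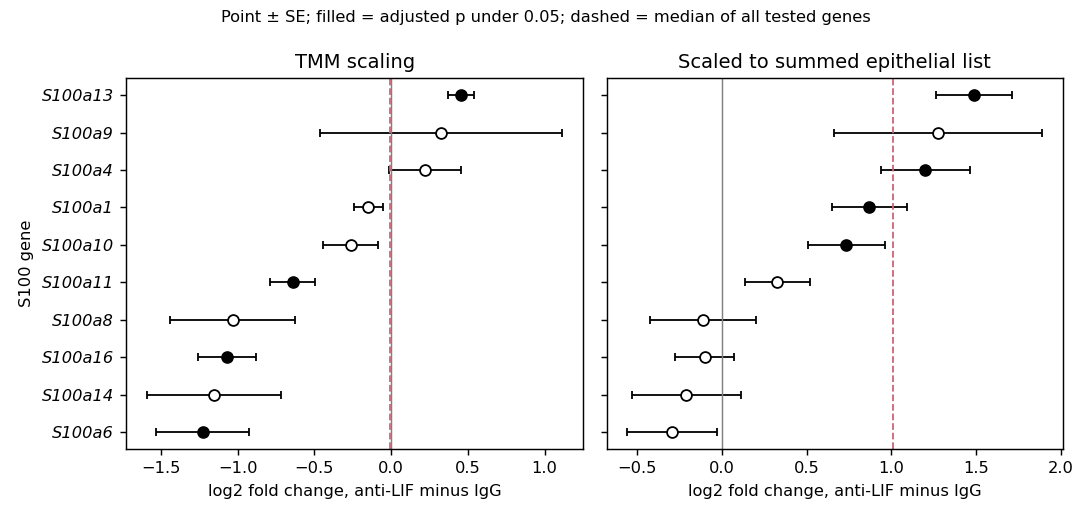
Log2 fold change (anti-LIF minus IgG, ± SE) of the 10 S100 genes with TMM scaling (left) and with libraries scaled to the summed epithelial list (right). Filled points have an adjusted p under 0.05 and the dashed line is the median of all tested genes, which moves from −0.01 to 1.01 between the panels.

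**Figure D3:**
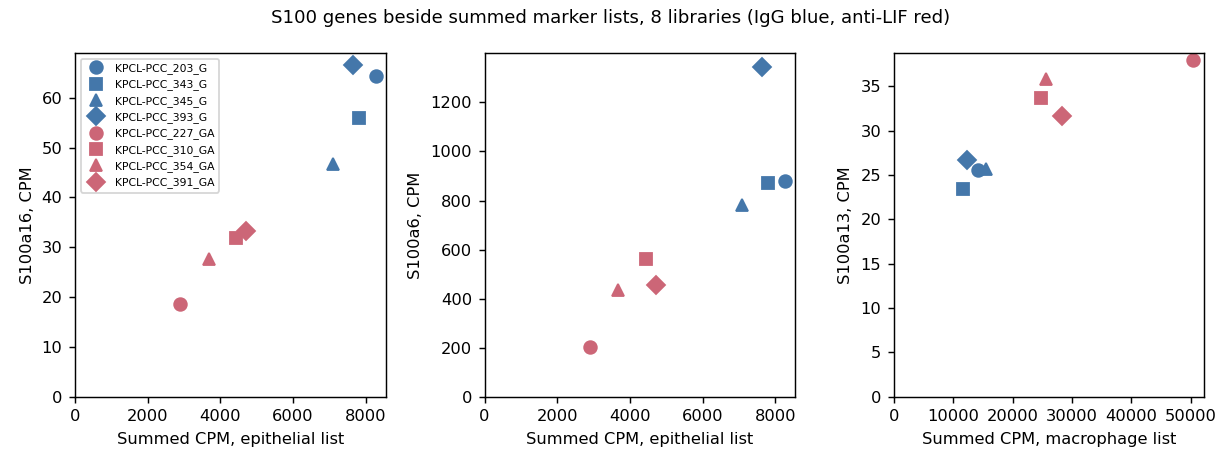
CPM of S100a16 and S100a6 against the summed CPM of the epithelial list, and of S100a13 against that of the macrophage list, 1 point per library (IgG blue, anti-LIF red). In each panel the arms are apart on both axes, and library KPCL-PCC_227_GA has the lowest epithelial and the highest macrophage sum.

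The windows upstream of S100a6 and S100a11 are shown because both genes fell. They come from RefSeq (GRCm38.p6, the assembly of mm10), 5′ to 3′ on the gene's strand. Bases inside exons of protein-coding GENCODE M21 transcripts are left out. S100a6 is at chr3:90612644-90612881 (+) and S100a11 at chr3:93520246-93520487 (+), and capitals mark the motif TGANTCA.
S100a6: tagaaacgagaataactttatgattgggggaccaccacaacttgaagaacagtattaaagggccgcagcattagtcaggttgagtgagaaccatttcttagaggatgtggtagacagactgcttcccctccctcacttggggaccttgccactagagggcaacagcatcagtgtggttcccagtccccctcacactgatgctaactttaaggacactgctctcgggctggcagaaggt
S100a11: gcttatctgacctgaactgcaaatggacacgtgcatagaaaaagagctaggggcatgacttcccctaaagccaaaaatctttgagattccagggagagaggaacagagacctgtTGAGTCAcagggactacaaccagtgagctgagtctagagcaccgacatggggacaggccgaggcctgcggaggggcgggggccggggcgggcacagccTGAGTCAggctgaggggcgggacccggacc

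Of the 10 members, 7 had a window at the start that was counted (all but S100a10, S100a14 and S100a16). In the 250 bases before the start, both strands were searched for TGANTCA (the AP-1 site), TTCNNNGAA (the STAT site) and TATAAA (the TATA box). TGANTCA was present in the S100a11 window alone among the 7, with matches that start 136 and 38 bases before the gene start, and in 6.75% of all 32851 windows. TTCNNNGAA was in 0 of the 7 and in 7.02% of all. TATAAA lay 31 bases before S100a4 and 30 bases before S100a8, and in 12.4% of all windows. These matches describe the letters in the windows only.

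S100a13 (chromosome 3, 90514435 to 90524581, + strand) was the member that rose. Its protein helps export proteins that lack a signal peptide, among them FGF1 and IL-1α. The levels were 25.6, 23.4, 25.7 and 26.7 CPM with IgG and 38.0, 33.7, 35.8 and 31.7 CPM with anti-LIF. The lowest anti-LIF value was above the highest IgG value, and the spread within an arm was the smallest of the 10 genes with IgG (coefficient of variation 5.40%). The mean went from 25.4 ± 1.37 to 34.8 ± 2.70 CPM, 1.37-fold higher (0.46 ± 0.09, adjusted p = 0.00704). The call held under all 19 alternatives run. The macrophage sum, which also did not overlap between the arms, was highest in library KPCL-PCC_227_GA, and so was S100a13. Other libraries did not keep the same order. KPCL-PCC_391_GA had the lowest anti-LIF S100a13 level but a higher macrophage sum (28271 CPM) than KPCL-PCC_310_GA (24714) and KPCL-PCC_354_GA (25601). KPCL-PCC_393_G had the highest IgG S100a13 level but a lower sum (12354 CPM) than KPCL-PCC_345_G (15508). KPCL-PCC_343_G was the lowest IgG library for both. The part of macrophages was not tested.

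S100a1 (chromosome 3, 90511034 to 90514330, − strand), better known from heart muscle and neurons, starts 104 bases from S100a13 on the opposite strand. It stood at 55.5, 64.8, 65.2 and 72.6 CPM with IgG and at 62.5, 57.0, 54.5 and 58.5 CPM with anti-LIF. The arms overlapped (64.5 ± 7.04 and 58.1 ± 3.36 CPM, −0.15 ± 0.09, adjusted p = 0.248). It passed as lower with scaling by library size alone (−0.31, adjusted p = 0.0275). It also did on log2 FPKM with a pseudocount of 1 (−0.27, adjusted p = 0.04) or 0.1 (−0.275, adjusted p = 0.0404). On those scales the median log2 fold change of all tested genes was itself below 0, at −0.164, −0.103 and −0.118. The sequence between both genes is shown because 1 of these neighbours rose and the other did not pass the test. It lies at chr3:90514393-90514434 (+), without the bases inside an S100a1 exon, and none of the motifs above was found between the starts.
between S100a1 and S100a13: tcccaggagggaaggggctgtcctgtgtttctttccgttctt

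The count of S100a13 per count of S100a1 does not depend on scaling. It was 0.461, 0.362, 0.395 and 0.368 with IgG and 0.608, 0.591, 0.656 and 0.542 with anti-LIF. The ratio was higher in every anti-LIF library than in any IgG library. On the log2 scale the difference was 0.60. This ratio was chosen after the values of both genes were seen, and it is given with no test.

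S100a4 (chromosome 3, 90603770 to 90606045, + strand), or metastasin, binds non-muscle myosin heavy chain and is known from fibroblasts, macrophages and invasive tumour cells. Its levels were 87.8, 77.4, 123 and 109 CPM with IgG and 78.2, 125, 163 and 96.4 CPM with anti-LIF. The arms overlapped widely (99.4 ± 20.7 and 116 ± 37.0 CPM, 0.22 ± 0.23, adjusted p = 0.499). In GENCODE M21 its exons share 302 bases with those of Gm42674 on the same strand, so its count is uncertain.

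Neither calprotectin gene passed the test. S100a8 (chromosome 3, 90669071 to 90670034, + strand) stood at 34.1, 18.8, 26.8 and 33.8 CPM with IgG and at 8.17, 25.4, 6.55 and 15.4 CPM with anti-LIF. Only library KPCL-PCC_310_GA of the anti-LIF arm reached into the IgG range. The means were 28.4 ± 7.23 and 13.9 ± 8.58 CPM, and the test did not pass (−1.03 ± 0.41, adjusted p = 0.0802). It passed in 5 of 19 alternatives. The adjusted p was 0.0369 with DESeq2, 0.0404 with limma-voom, 0.0412 and 0.0434 on FPKM, and 0.0166 without library KPCL-PCC_310_GA (log2 fold change −1.49). Over all 19 it ran from 0.0166 to 0.752, and without libraries KPCL-PCC_227_GA and KPCL-PCC_393_G the log2 fold change was −0.75 (adjusted p = 0.253).

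S100a9 (chromosome 3, 90692630 to 90695721, − strand) stood at 27.1, 1.81, 4.20 and 6.92 CPM with IgG and at 5.56, 25.0, 6.55 and 12.96 CPM with anti-LIF. Libraries KPCL-PCC_203_G and KPCL-PCC_310_GA, in different arms, were the highest. Library KPCL-PCC_391_GA lay between them and the rest, which stood at 1.81 to 6.92 CPM. The coefficient of variation was 116% with IgG and 71.4% with anti-LIF. The means of 10.0007 ± 11.6 and 12.5 ± 8.93 CPM lay well within the scatter of either arm (0.32 ± 0.79, adjusted p = 0.777). The log2 fold change was −0.24 without library KPCL-PCC_310_GA, −0.02 without library KPCL-PCC_343_G and 1.53 without library KPCL-PCC_203_G.

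The count of S100a8 per count of S100a9 varied widely between libraries. The count ratio was 1.26 (594 and 472 reads), 10.4 (342 and 33), 6.37 (529 and 83) and 4.89 (626 and 128) with IgG. With anti-LIF it was 1.47 (128 and 87), 1.02 (380 and 374), 1.00 (106 and 106) and 1.19 (230 and 193). The ratio was at most 1.47 in the anti-LIF libraries and 1.26 in IgG library KPCL-PCC_203_G, and at least 4.89 in the other IgG libraries. The mean log2 ratio was 2.17 ± 1.303 with IgG and 0.21 ± 0.26 with anti-LIF. The difference of −1.96 gave an exact two-sided permutation p of 0.0571, where the smallest p that 70 assignments allow is 0.0286. Library KPCL-PCC_203_G is the only one of the IgG arm within the anti-LIF range. Without it the arms were apart, so the exact p could only be the smallest that the remaining libraries allow (difference −2.57, exact p = 0.0286). That p adds nothing to the separation itself. With any other library left out the exact p was 0.0571 or 0.0857.

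**Figure D4:**
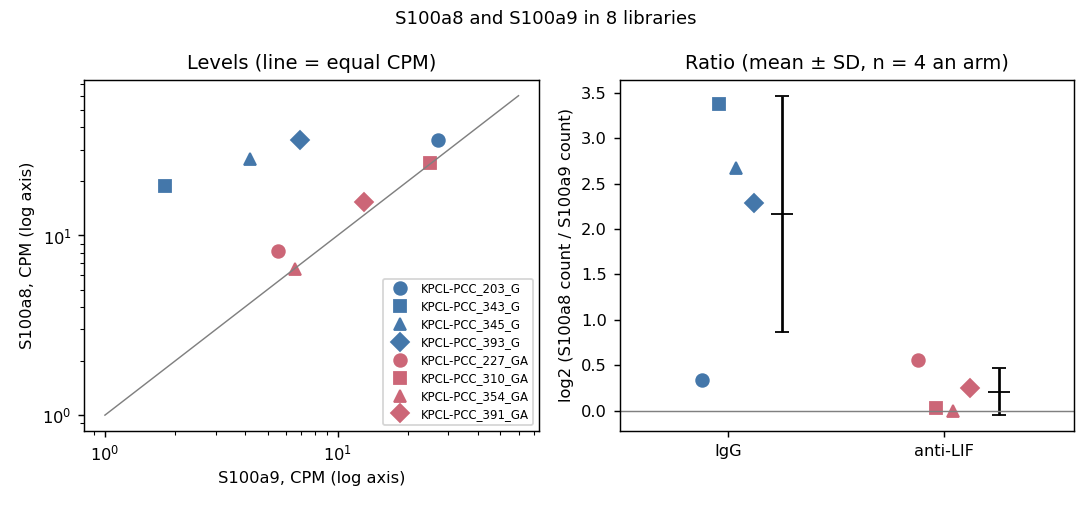
Left, S100a8 against S100a9 in CPM (log axes, line at equal CPM) for 8 libraries; right, log2 of the count ratio by arm with mean ± SD (n = 4). The 4 anti-LIF libraries and IgG library KPCL-PCC_203_G have ratios of at most 1.47, and IgG libraries KPCL-PCC_343_G, KPCL-PCC_345_G and KPCL-PCC_393_G ratios of at least 4.89.

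Of 8 defining neutrophil markers, 2 had their highest and lowest level of each arm in the same libraries as S100a9, and these are named because of it. Cxcr2, the chemokine receptor of neutrophils, stood at 15.3, 0.879, 2.89 and 4.59 CPM with IgG and at 4.15, 11.3, 11.2 and 6.45 CPM with anti-LIF. As for S100a9, it was highest in library KPCL-PCC_203_G in the IgG arm and in library KPCL-PCC_310_GA in the anti-LIF arm, and lowest in libraries KPCL-PCC_343_G and KPCL-PCC_227_GA. Retnlg followed the same extremes, from 0 CPM in library KPCL-PCC_343_G to 4.61 CPM in library KPCL-PCC_310_GA. The other 6 did not share all these libraries, and Csf3r was highest in KPCL-PCC_227_GA (178 CPM), where S100a9 was lowest in its arm. Of the 8, 4 were tested and 1 rose, Csf3r (34.3 and 111 CPM, adjusted p = 0.00969), and their sums were 49.5 to 183 and 133 to 249 CPM. Ly6g, the classic surface marker, had 4 reads in all IgG libraries together and 2 in all anti-LIF libraries. Of the full list of 26 neutrophil markers, 17 were tested, 3 rose and 2 fell, and Mrgpra2b was at 0 in every library. Its sums were 1067 to 1342 and 811 to 1554 CPM. The part of neutrophils in the S100a8 and S100a9 values was not tested.

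S100a8 and S100a9 lie next to each other on chromosome 3 and their windows are shown because the genes are so often read as a pair. That of S100a8 is at chr3:90668821-90668977 (+) and leaves out 93 exonic bases, which hold its TATAAA match. That of S100a9 is at chr3:90695722-90695971 (−).
S100a8: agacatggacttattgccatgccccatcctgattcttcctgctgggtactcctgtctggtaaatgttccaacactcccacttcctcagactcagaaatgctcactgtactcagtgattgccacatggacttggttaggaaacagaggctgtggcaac
S100a9: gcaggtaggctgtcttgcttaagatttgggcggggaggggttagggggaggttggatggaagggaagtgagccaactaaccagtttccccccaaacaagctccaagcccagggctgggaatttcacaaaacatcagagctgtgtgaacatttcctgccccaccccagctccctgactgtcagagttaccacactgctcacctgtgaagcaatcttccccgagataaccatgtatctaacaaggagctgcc

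Levels of different genes are compared per transcript length, in the deposited FPKM (reads scaled by transcript length and library total). With IgG the order was S100a6 (1134 ± 319 FPKM), S100a11 (359 ± 38.0), S100a10 (313 ± 87.6), S100a4 (167 ± 32.9), S100a1 (87.9 ± 9.42), S100a8 (61.3 ± 17.4), S100a16 (46.2 ± 8.64), S100a14 (32.6 ± 17.2), S100a13 (29.8 ± 2.32) and S100a9 (16.5 ± 19.5). S100a6 stood clear of S100a11, S100a10 of S100a4, S100a4 of S100a1 and S100a1 of S100a8. The other neighbours overlapped.

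With anti-LIF the order was S100a6 (449 ± 180 FPKM), S100a10 (239 ± 44.1), S100a11 (212 ± 50.1), S100a4 (180 ± 64.8), S100a1 (72.4 ± 2.30), S100a13 (37.3 ± 1.99), S100a8 (27.7 ± 18.0), S100a16 (20.3 ± 5.73), S100a9 (18.7 ± 13.9) and S100a14 (13.5 ± 6.73). Only S100a4 and S100a1, and S100a1 and S100a13, did not overlap with the next gene in order. S100a13 thus went from rank 9 to rank 6. CPM per kilobase gave the same orders.

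**Figure D5:**
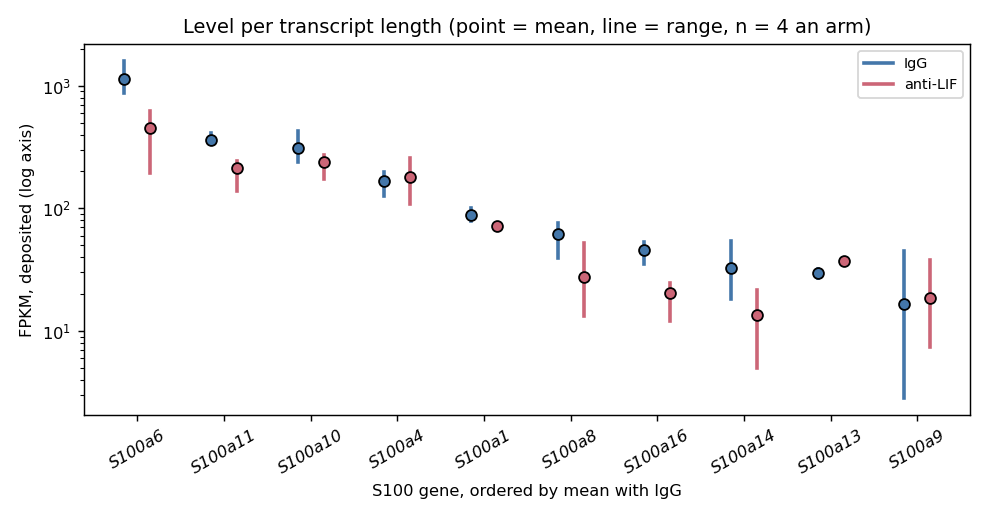
Deposited FPKM (log axis) of the 10 S100 genes in order of the IgG mean; points are means and lines run from the lowest to the highest of 4 libraries in each arm. S100a6 is the highest in both arms, and S100a9 has the widest range of the 10 in the IgG arm.

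Of the 10 members, 8 lie in a block on chromosome 3 from 90511034 (S100a1) to 90695721 (S100a9). The other two, S100a11 and S100a10, lie from 93520496 to 93564645, and 2824774 bases separate the blocks. The 4 other genes in the first block are S100a2, S100a3, S100a5 and S100a7a, and none had enough reads to be tested. Coordinates are those of the count table (mm10), and GENCODE M21 gives each member 3 exons in its first-numbered transcript, except S100a13 with 4. Both called directions occur inside the first block, with S100a13 higher and S100a6 and S100a16 lower.

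Likeness across the 8 libraries was measured as the root mean square difference of log2 CPM after each gene's mean was taken off, so 0 is an identical pattern. Among members the closest pair was S100a6 and S100a16 (0.254). S100a8 and S100a9 were 1.25 apart, and the nearest member to S100a9 was S100a10 (1.15). The measure takes in the size of swings as well as their direction, and S100a9 swung widely. Each mean was over both arms, so the difference between arms is part of the measure. Genes with similar fold changes thus lie nearer to each other by it. In every library S100a8 and S100a9 lay on the same side of their arm's mean log2 CPM. They shared the highest and lowest IgG library and the highest anti-LIF library, but not the lowest anti-LIF library. Nearest to S100a6 among all other tested genes were C77370 (0.101), Tpm2 (0.127), a tropomyosin, and Rin1 (0.128). For S100a16 they were Traf4 (0.079), Cep170b (0.081) and Slc9a5 (0.084). For S100a11 they were Lgr4 (0.075), a receptor of R-spondins, Mpzl3 (0.077) and the Notch target Hes1 (0.087).

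S100a14 had Ptprr (0.23), Loxl4 (0.232) and Padi1 (0.245) nearest. S100a8 had Grip2 (0.19), Elf3 (0.222), an epithelial transcription factor, and Sult1c2 (0.239). S100a9 had no close match, the nearest being Hdc (0.481), which makes histamine and is on the neutrophil list, Mrgprf (0.496) and the platelet chemokine gene Ppbp (0.501). S100a4 had Neil3 (0.137), a DNA glycosylase, Atp8b4 (0.15) and Spc25 (0.157), a kinetochore subunit.

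Among the 7 other S100 genes, S100g and S100b had enough reads to be tested. S100g, the vitamin D-dependent calcium buffer of absorptive epithelia, stood at 0.746, 0.329, 1.52 and 1.03 CPM with IgG and at 0.958, 17.8, 10.9 and 2.35 CPM with anti-LIF. Libraries KPCL-PCC_310_GA and KPCL-PCC_354_GA were high, whereas library KPCL-PCC_227_GA lay within the IgG range. The gene passed the test (3.13 ± 0.88, adjusted p = 0.0266), but not in 8 of 19 alternatives, 5 of which left out 1 library: KPCL-PCC_203_G (adjusted p = 0.0618), KPCL-PCC_343_G (0.073), KPCL-PCC_393_G (0.061), KPCL-PCC_310_GA (0.0583) or KPCL-PCC_354_GA (0.0599). S100b, known from glia, had 5.24 and 3.07 CPM on average and did not pass (−0.78, adjusted p = 0.113). S100a3 had 66 reads in all 8 libraries together, S100a7a 57, S100a5 14, S100a2 5 and S100z 1, and these were not tested.

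Of 7 receptors for extracellular S100 proteins, 2 fell, 0 rose and 5 did not pass, with a median log2 fold change of −0.07. Beside the 16.5% lower and 15.7% higher of all tested genes, these counts are no result about the group. Ager, which encodes RAGE, stood at 3.84, 7.19, 6.43 and 6.22 CPM with IgG and at 2.11, 2.003, 1.42 and 2.35 CPM with anti-LIF. It was low in all libraries and lower in every anti-LIF library (−1.59 ± 0.25, adjusted p = 0.00461). Mcam, an adhesion receptor of calprotectin, stood at 26.5, 51.2, 38.8 and 27.9 CPM against 12.01, 16.6, 9.64 and 18.1 CPM, also without overlap (−1.36 ± 0.27, adjusted p = 0.00761). Both calls were lost with scaling to the epithelial list (adjusted p = 0.0944 for Ager and 0.164 for Mcam). Tlr4 had 192 and 198 CPM (adjusted p = 0.852), Bsg 418 and 399 CPM (0.756), Nptn 228 and 198 CPM (0.11) and the scavenger receptor gene Cd36 13.3 and 32.6 CPM (0.0728).

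Of 13 genes for intracellular partners and cargo, 3 rose, 3 fell and 7 did not pass (median −0.28). Those counts are near the 15.7% and 16.5% of all tested genes and are no result about the group. Among the named genes are annexins, which bind membranes in a calcium-dependent way. Anxa1, the partner of S100A11, fell from 619 ± 117 to 386 ± 36.6 CPM (−0.68, adjusted p = 0.0102), and Anxa11 fell from 59.1 to 44.3 CPM (−0.42, adjusted p = 0.0124). Anxa5 rose from 159 ± 29.8 to 295 ± 9.75 CPM (0.89, adjusted p = 0.00418) and Anxa6 from 220 to 306 CPM (0.47, adjusted p = 0.0105). With scaling to the epithelial list, Anxa1 (0.32) and Anxa11 (0.60) had the opposite sign. The adjusted p of Anxa11 was at most 0.0337 over all 19 alternatives, so on that scale it passed as higher. That of Anxa1 ran up to 0.204 over the 19. Anxa2, the partner of S100A10, had 1134 ± 238 and 936 ± 120 CPM and did not pass (−0.28, adjusted p = 0.23; 0.71, adjusted p = 0.016, with epithelial scaling).

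Plat, the plasminogen activator that the S100A10 and annexin A2 complex binds, fell from 144 to 71.8 CPM (−1.01, adjusted p = 0.0385), a call lost in 7 of 19 alternatives. Of those, 5 left out 1 library: KPCL-PCC_203_G (adjusted p = 0.0915), KPCL-PCC_343_G (0.0707), KPCL-PCC_393_G (0.0693), KPCL-PCC_227_GA (0.0541) or KPCL-PCC_354_GA (0.0954). The co-chaperone gene Sugt1 rose from 49.8 to 58.4 CPM (0.23, adjusted p = 0.0485), a call lost in 12 of 19, with adjusted p up to 0.592. Leaving out library KPCL-PCC_343_G (0.12), KPCL-PCC_345_G (0.0894), KPCL-PCC_393_G (0.0958), KPCL-PCC_227_GA (0.055), KPCL-PCC_354_GA (0.119) or KPCL-PCC_391_GA (0.0895) was enough. Myh9, the myosin bound by S100A4, had 1487 and 1346 CPM (adjusted p = 0.436). Cacybp, the S100A6 partner, had 36.0 and 46.9 CPM (0.0548). Il1a, a cargo of S100A13, had 359 and 256 CPM (0.262).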

How the data were processed

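RNA-seq of sorted EpCAM+ cells from 8 tumours was used, 4 in each arm, grouped by the samples' labels. Per the submitters' processing notes, the tools were FastQC 0.11.2, STAR 2.4.0k, HOMER and edgeR 3.6.8, with build mm10. Neither the annotation version nor the strand setting is given in the sources consulted. The authors deposited raw read counts per gene, and a second table of FPKM with transcript lengths (other values, in bases), per the file headers. Counts of overlapping or near-identical genes could be split differently by other counters.

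The test of the counts used edgeR 4.0.16 in R 4.3.3: filterByExpr, TMM scaling, quasi-likelihood test of arm, and Benjamini-Hochberg adjustment over all 14711 tested genes (threshold 0.05). A log2 fold change above 0 is higher with anti-LIF. CPM are scaled by TMM, and a prior count of 2 was used for log2 CPM. The S100a8 to S100a9 count ratio was compared by the exact two-sided permutation test over 70 assignments. The procedure was tested on simulated data with as many genes set higher as lower. Those data held no shift in cell mixture, so they do not bear on the choice of scaling.

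Alternatives were other scalings, DESeq2 1.42.0, limma-voom (limma 3.58.1), limma-trend on log2 FPKM (pseudocounts 1 and 0.1), other low-count filters, each library left out, and, added after seeing the data, 2 libraries left out together. Named were all S100 genes, list genes that passed with up to 4 that did not, and the 3 genes nearest to each member spanning over 1 log2 unit. Cxcr2, Retnlg and Ly6g are defining neutrophil markers, chosen for naming after their values were seen. The members and lists were chosen with earlier results of these data known. The labels give 1 mouse per library. Part of the genotype, the same in both arms, is not reported here.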

Additional observations from a re-analysis of the deposited data

How the results depend on the processing

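S100a13 kept its direction and call in all 19 alternatives, and S100a6 and S100a16 in 18. Scaling to the epithelial list gave 11207 genes higher and 184 lower, with 4 members higher and 0 lower. It turned the sign of S100a1 (0.87), S100a10 (0.73), S100a11 (0.33), S100b (0.14), Anxa1 (0.32), Anxa2 (0.71), Anxa11 (0.60) and Epcam (0.05), since each value is then relative to a list that fell. Epcam is itself on that list, so its value is no separate result. S100a10 was 0.005 without libraries KPCL-PCC_227_GA and KPCL-PCC_393_G. The number of genes higher was 1430 with library size alone, and 1472 and 1458 on FPKM with a pseudocount of 1 and 0.1, against 2303. Members lower numbered 5 with DESeq2 and with either pseudocount. With 1 library left out, genes higher ranged from 1467 to 2218 (lowest without library KPCL-PCC_343_G), genes lower from 1507 to 2136 (lowest without library KPCL-PCC_343_G, and 1521 without library KPCL-PCC_354_GA), members lower from 3 to 5 (5 without library KPCL-PCC_310_GA), the log2 ratio of S100a8 to S100a9 from −2.57 to −1.56, and S100a9 from −0.24 to 1.53, with −0.02 without library KPCL-PCC_343_G. The cause of these shifts, the epithelial scaling aside, was not tested. Depth limits the S100 genes that were not tested, with at most 66 reads each in all libraries together. No paired analysis was possible because the arms share no mouse number.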
